A study of Mus musculus with 48 samples.

Results

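The genes described here are Nfe2l2, which encodes the transcription factor NRF2, its inhibitor Keap1, and 8 genes of glutathione, thioredoxin and quinone metabolism that NRF2 is known to induce (Nqo1, Gclc, Gclm, Srxn1, Txnrd1, Slc7a11, Gsr and Gsta4). They were taken by symbol, as 10 of the 19601 protein-coding genes in the batch-corrected tables. RNA came from the whole substantia nigra (SN) of C57Bl/6J male mice that had received mouse α-synuclein (α-syn) by unilateral injection into the right striatum. The protein was either pre-formed fibrils (PFF), which seed aggregates, or monomer, the control injection that both O2 levels share. Mice breathed 21% or 11% O2 after injection. They were 121 days old at injection and were killed 90 to 98 days later. The sources differ on whether 11% O2 began after the injection or only after a first period at 21% O2. In the paper, the experiment with a delayed start had no monomer mice at 11% O2. In its design with monomer and PFF mice at both O2 levels, 11% O2 began soon after the injection. The 42 mice analysed were 11 monomer and 12 PFF mice at 21% O2, and 9 monomer and 10 PFF mice at 11% O2. The other 6 of the 48 mice sequenced had been left out of the corrected tables by the authors as outliers. In bulk tissue, fewer cells of a type and less RNA per cell cannot be told apart. The label names the SN as a whole, not pars compacta alone.

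NRF2 is made continuously and is held by KEAP1, which directs it to degradation. Oxidants and electrophiles modify KEAP1, and NRF2 then enters the nucleus, pairs with small MAF proteins and binds antioxidant response elements near its target genes. Its targets supply cysteine, make and recycle glutathione, and detoxify quinones and products of lipid peroxidation. Because control of NRF2 is largely by protein stability, Nfe2l2 mRNA does not measure NRF2 activity, and the target mRNAs are the usual readout. In brain, this response is known to be strongest in glia.

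The tissue carried the markers of its label. Th, the rate-limiting enzyme of dopamine synthesis, was detected in every mouse, from 96.1 to 1079 TPM (a read abundance scaled by transcript length and library size), and Slc6a3, the dopamine transporter, from 263 to 1932 TPM, so that the dopaminergic content of the pieces varied widely. Leptomeningeal fibroblast markers also varied, with Slc6a13 between 2.22 and 50.4 TPM. Total counts before correction lay between 12902996 and 17120921 in the 42 mice. Mice were harvested in 3 batches. Batch 2 held no monomer mice at 11% O2 and batch 3 no monomer mice at 21% O2, so 11% and 21% O2 in monomer mice can be compared within batch 1 alone.

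Promoter windows (300 bases around the start, most of them upstream, RefSeq, GRCm38.p6) were at hand for 7 of the 10 genes, and not for Gclc, Gsr and Gsta4. They were searched on both strands for the core of the antioxidant response element, written as TGACNNNGC or TGAGNNNGC. The letters were found in 5 of 7 genes (Nfe2l2, Gclm, Srxn1, Txnrd1 and Slc7a11), against 30.8% of 27025 genes with a window, and were not in the windows of Keap1 and Nqo1. A match is a description of the sequence and no evidence of binding. Stretches of 3 of them are shown 5′ to 3′ with the matches in capitals, because Srxn1 held the most matches (3), Gclm belongs to the enzyme that limits glutathione synthesis, and Txnrd1 had the smallest adjusted p of the 10 genes. The Txnrd1 window belongs to its second start.
Srxn1, chr2:152105346-152105573, plus strand: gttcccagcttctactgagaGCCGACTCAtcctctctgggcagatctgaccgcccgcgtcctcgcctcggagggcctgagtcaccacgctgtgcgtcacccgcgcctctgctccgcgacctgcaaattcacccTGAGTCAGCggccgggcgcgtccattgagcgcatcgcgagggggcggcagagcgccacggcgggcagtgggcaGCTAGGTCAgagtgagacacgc
Gclm, chr3:122245403-122245502, plus strand: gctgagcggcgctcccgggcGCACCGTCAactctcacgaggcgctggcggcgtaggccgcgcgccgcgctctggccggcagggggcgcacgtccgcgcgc
Txnrd1, chr10:82859094-82859193, plus strand: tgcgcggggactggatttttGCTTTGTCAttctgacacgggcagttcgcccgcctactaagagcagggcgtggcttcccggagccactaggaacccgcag

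All 10 genes passed the filter on low counts, and none had fewer than 124 batch-corrected counts in any mouse. By TPM, which is per transcript length, Gsta4, a glutathione transferase that conjugates lipid peroxidation aldehydes, was highest (median 255 TPM), followed by Srxn1, the sulfiredoxin that repairs over-oxidized peroxiredoxins (166.4 TPM). The catalytic subunit of glutamate–cysteine ligase, Gclc, had a median of 86.3 TPM and its modifier subunit, Gclm, 57.9 TPM. Gclc exceeded Gclm in 42 of 42 mice, by a median ratio of 1.49. Keap1 (56.2 TPM), Txnrd1 (48.4 TPM), Nfe2l2 (34.9 TPM), Gsr (34.4 TPM) and Nqo1 (31.0 TPM) followed, and Slc7a11, the cystine–glutamate antiporter, was lowest (18.9 TPM). Some neighbours in this order were not separated. Gclm was above Keap1 in 28 of 42 mice, Nfe2l2 above Gsr in 22 and Gsr above Nqo1 in 30. The spread between mice was smallest for Gsta4 (coefficient of variation 6.47%) and largest for Slc7a11 (27.1%).

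**Figure D1:**
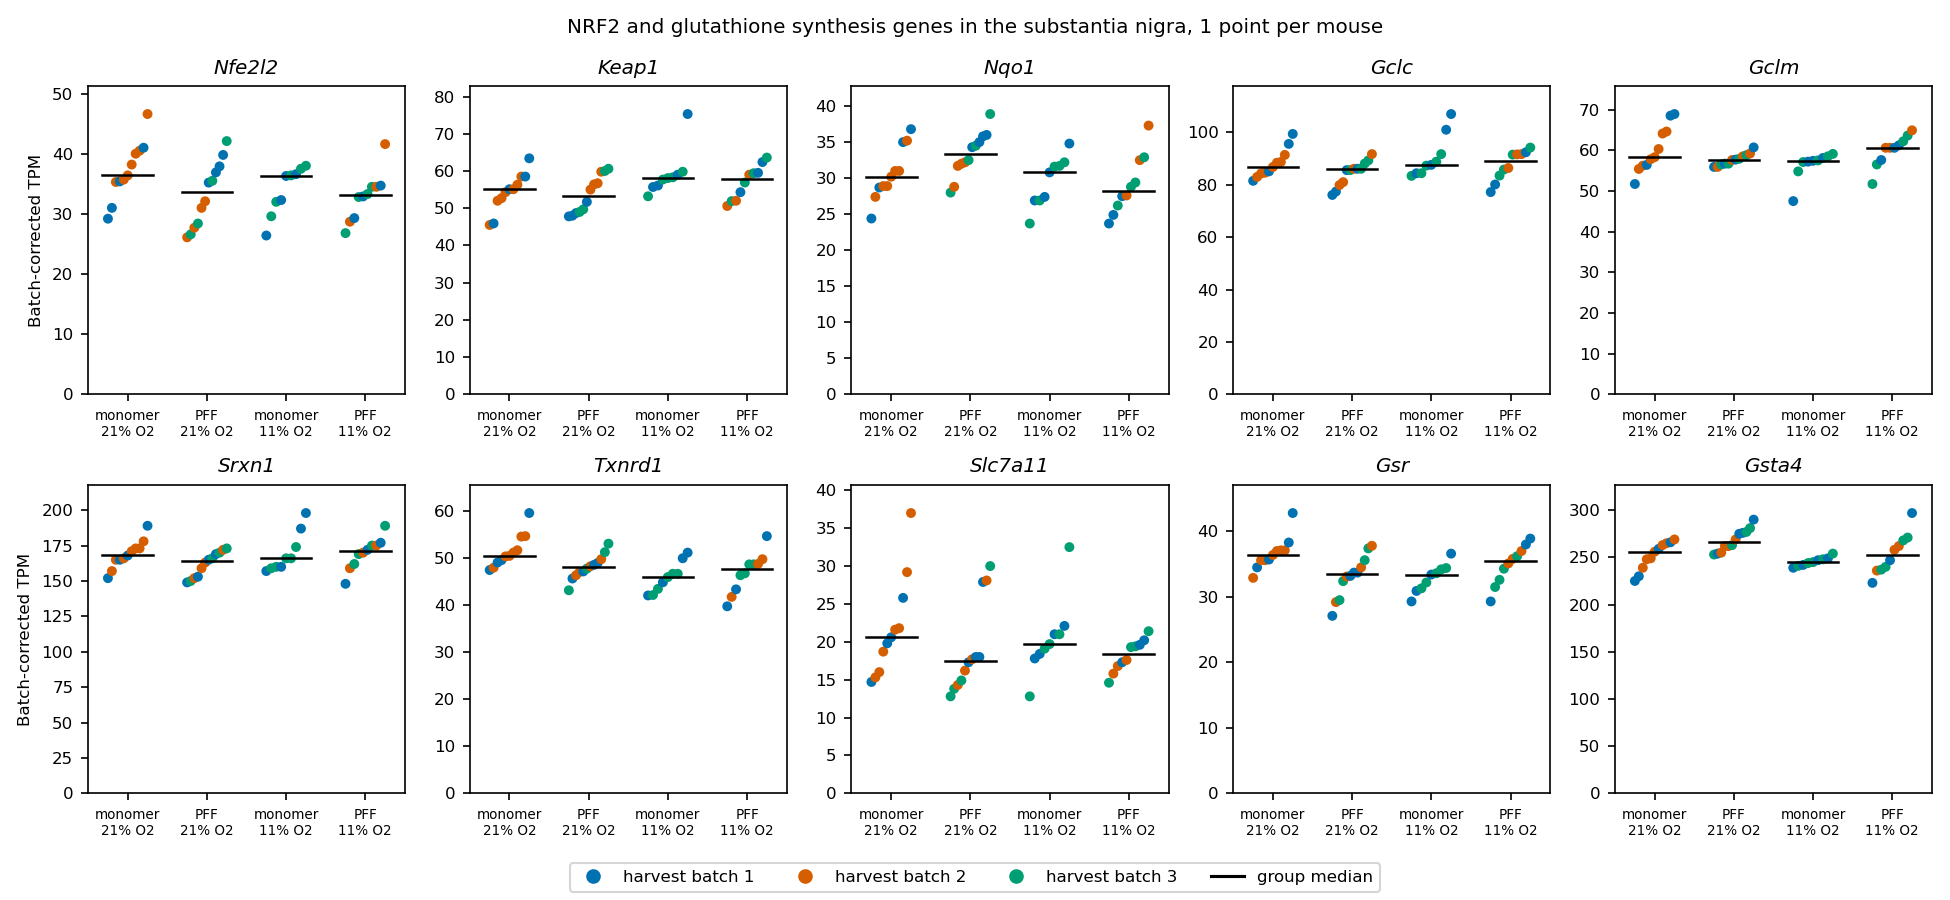
Batch-corrected TPM (y axis, from 0) of each gene in each of the 42 mice by group, 1 point per mouse, colored by harvest batch, with the group median as a black line. The 4 groups overlap for every gene, and Slc7a11 has the widest spread, from 12.8 to 37.0 TPM.

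None of the 10 genes met the criteria for a call with PFF or with 11% O2, an adjusted p below 0.05 with an absolute log2 fold change above 0.25 (quasi-likelihood test of edgeR, Benjamini–Hochberg over 14839 genes). PFF against monomer at 21% O2 called 0 of 10 genes, where 3.70% of all genes tested were called. At 11% O2 the same comparison called 0 of 10, against 0.00% of all genes, so edgeR called no gene at all there (581 genes, 3.92%, had an unadjusted p below 0.05, and DESeq2 called 1 gene). Breathing 11% against 21% O2 called 0 of 10 in monomer mice, against 7.23% of all genes, and 0 of 10 in PFF mice, against 0.580%. The interaction of injection and O2 level, which tests whether the PFF difference depended on O2, called 0 of 10, against 2.14%. At these background shares, 0 of 10 is near the background. A p that misses the threshold does not show that values were equal.

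No gene separated 2 groups completely. The count of genes without overlap between groups was 0 of 10 in each of the 4 comparisons, against 0.0404% of all genes for PFF at 21% O2, 0.00% for PFF at 11% O2, 0.391% for O2 in monomer mice and 0.0876% for O2 in PFF mice. On batch-corrected counts, the fits bounded most changes. Their intervals do not allow for the batch adjustment and may be too narrow. Of the 50 fitted differences (10 genes in 5 comparisons), 33 had a 95% interval wholly within ±0.25 on the log2 scale. Gclc, Srxn1 and Gsta4 were bounded in this way in all 5 comparisons, whereas Slc7a11 was in 0 of 5, so changes of Slc7a11 beyond this size were not excluded. The median difference of the 10 genes was −0.0441 for PFF at 21% O2, 0.00244 for PFF at 11% O2, −0.0709 for O2 in monomer mice and 0.0198 for O2 in PFF mice, beside medians over all genes tested of 0.000849, −0.000602, −0.00596 and −0.00631.

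**Figure D2:**
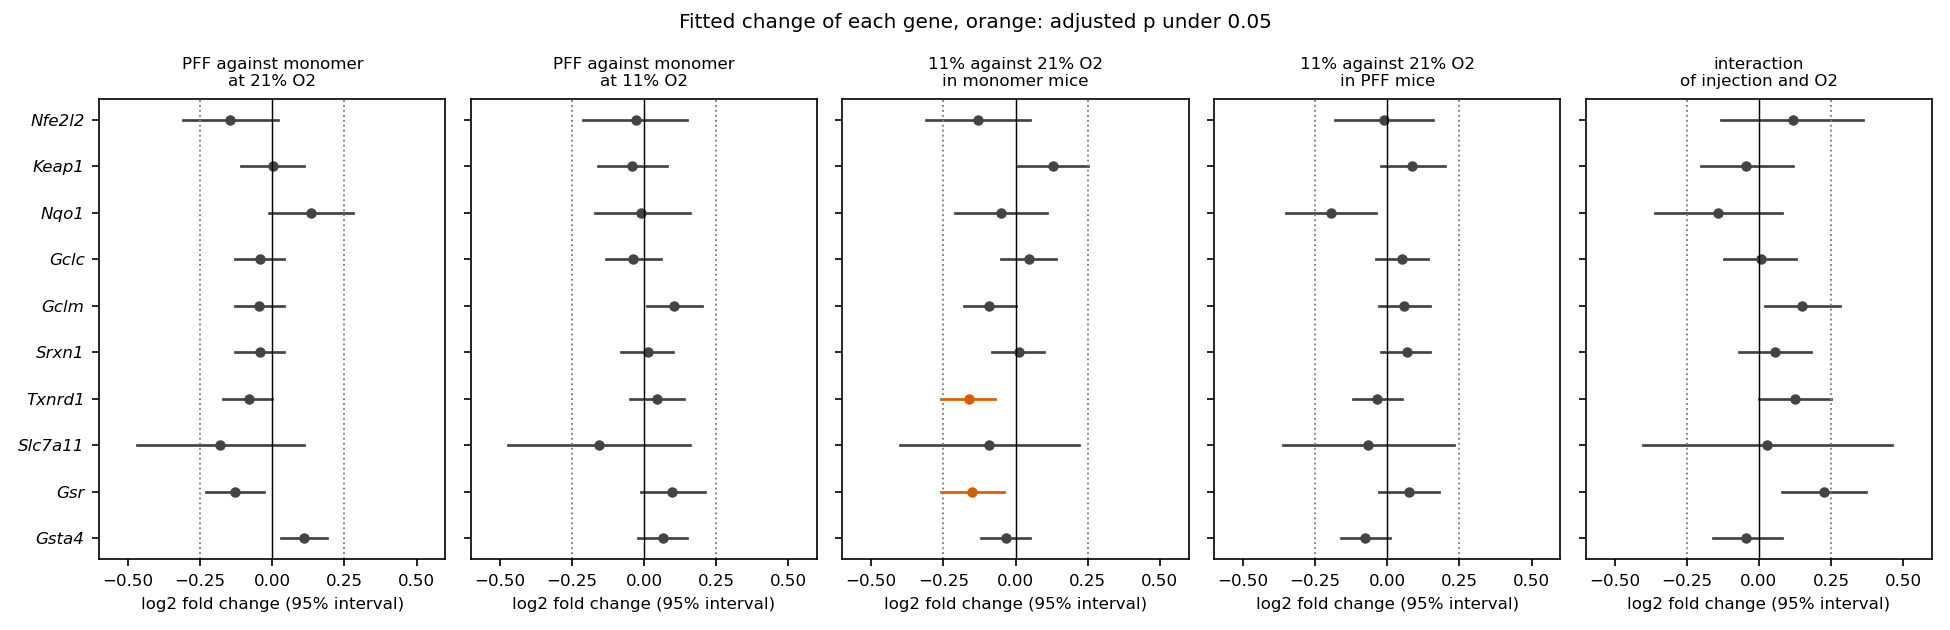
Fitted log2 fold change (x axis) of each gene in the 5 comparisons, points with 95% intervals as bars, dotted lines at ±0.25. Txnrd1 and Gsr in monomer mice at 11% against 21% O2 (orange) had adjusted p values below 0.05, at fold changes of −0.16 and −0.15, short of the dotted line.

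The differences with the smallest adjusted p concerned the 2 disulfide reductases. Txnrd1 encodes thioredoxin reductase of the cytosol. It ran from 47.4 to 59.5 TPM (median 50.4) in monomer mice at 21% O2 and from 42.02 to 51.1 TPM (median 45.9) in monomer mice at 11% O2, so the lower group reached into the range of the higher one. The log2 fold change was −0.16 (SE 0.0457, edgeR, adjusted p = 0.0133), and it kept an adjusted p below 0.05 with each of the 42 mice left out in turn. In batch 1 alone, the only batch that held both of these groups, it was −0.13 (SE 0.0503, edgeR, adjusted p = 0.180). In PFF mice the Txnrd1 ranges overlapped broadly, 43.1 to 53.0 TPM at 21% O2 and 39.7 to 54.6 TPM at 11% O2, with a log2 fold change of −0.04 (SE 0.0435). The interaction for Txnrd1 was 0.13 (SE 0.0630, edgeR, adjusted p = 0.330), so a difference between monomer and PFF mice was not established.

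Gsr, glutathione reductase, which regenerates glutathione from its disulfide, had medians of 36.4 TPM in monomer mice at 21% O2 (32.9 to 42.8), 33.5 in PFF mice at 21% O2 (27.1 to 37.8), 33.4 in monomer mice at 11% O2 (29.3 to 36.6) and 35.5 in PFF mice at 11% O2 (29.3 to 38.9). Monomer mice at 21% O2 thus had the highest median, with all ranges overlapping. Gsr differed at 11% O2 in monomer mice (log2 fold change −0.15, SE 0.0528, edgeR, adjusted p = 0.0494). With 1 of the 42 mice left out in turn, this adjusted p ran from 0.0328 to 0.106 and was below 0.05 in 11 of 42 fits. Counted at any fold, 2 of 10 genes were lower at an adjusted p below 0.05 in this comparison, against 6.21% of all genes tested. With PFF at 21% O2 the Gsr difference was −0.13 (SE 0.0489, edgeR, adjusted p = 0.103) and with PFF at 11% O2 it was 0.10 (SE 0.0540, adjusted p = 1.00). The interaction for Gsr, 0.23 (SE 0.0729, 95% interval 0.08 to 0.37), was the largest of the 10 and did not pass (edgeR, adjusted p = 0.0902). Without replicate 3 of the PFF mice at 11% O2, the lowest of its group for Gsr, it was 0.25 and passed both criteria (edgeR, adjusted p = 0.0471). In batch 1 alone, which held all 4 groups, it was 0.30 (SE 0.101, edgeR, adjusted p = 0.521). The comparisons share their monomer or PFF groups, so these Gsr values are not independent of each other.

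Nfe2l2 ran from 29.2 to 46.6 TPM (median 36.4) in monomer and from 26.1 to 42.1 TPM (median 33.6) in PFF mice at 21% O2. At 11% O2 it ran from 26.4 to 38.01 TPM (median 36.3) in monomer and from 26.8 to 41.6 TPM (median 33.1) in PFF mice. The groups overlapped over most of their ranges. The log2 fold change with PFF at 21% O2 was −0.15 (SE 0.0815, edgeR, adjusted p = 0.289), and with 11% O2 in monomer mice −0.13 (SE 0.0878, adjusted p = 0.347). Keap1, whose product is the substrate adaptor of the ligase that marks NRF2, had medians between 53.3 and 58.1 TPM in the 4 groups. Its largest difference was 0.13 at 11% O2 in monomer mice (SE 0.0571, edgeR, adjusted p = 0.124), where replicate 3 of the 11% group stood at 75.3 TPM and the next mouse at 59.8 TPM.

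The fitted direction for Nfe2l2 differed between batches. In batch 1 at 21% O2, the mean before correction was 28.9 TPM with monomer (SD 5.40, n = 4) against 32.9 TPM with PFF (SD 1.74, n = 4). In batch 2 it was 36.2 TPM with monomer (SD 3.12, n = 7) against 27.7 TPM with PFF (SD 2.28, n = 4), and these ranges did not overlap (33.3 to 42.3 and 25.2 to 30.0 TPM). Among these few mice, 5.71% of all genes tested did not overlap, and 1 of the 10. Fitted within each batch, the log2 fold change was 0.21 (SE 0.136, edgeR, adjusted p = 0.494) in batch 1 and −0.38 (SE 0.0913, adjusted p = 0.0239) in batch 2, where Nfe2l2 was called among 580 of 14837 genes (3.91%). Between 11% and 21% O2 in PFF mice it was −0.26, 0.25 and −0.06 in batches 1, 2 and 3 (SE 0.148, 0.111 and 0.121), none of them called. The pooled values for Nfe2l2 thus average over batches with opposite signs. Nfe2l2 was not alone in this. With PFF at 21% O2, Keap1 was −0.12 in batch 1 and 0.12 in batch 2 (SE 0.0703 and 0.0655). Slc7a11 was 0.14 and −0.24 there (SE 0.234 and 0.137), and neither gene was called. The difference between batches was not tested.

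**Figure D3:**
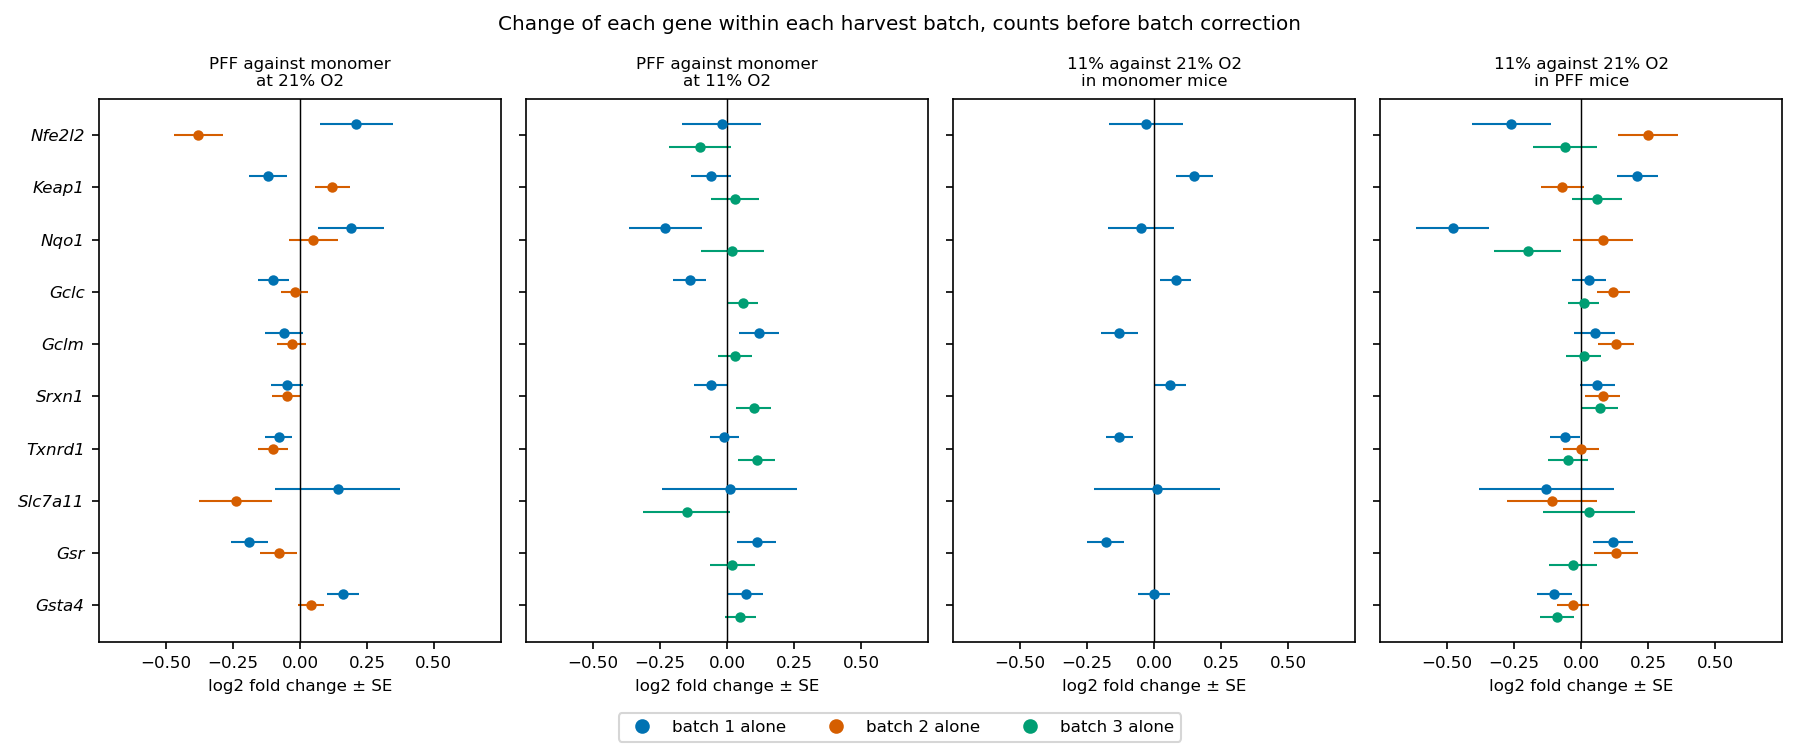
Log2 fold change ± SE (x axis) of each gene fitted within each harvest batch on counts before correction, for the comparisons whose groups the batch held. Nfe2l2 points to opposite sides in batches 1 and 2 with PFF at 21% O2 (0.21 and −0.38), while Srxn1 and Txnrd1 stay between −0.10 and −0.05 there. Keap1 (−0.12 and 0.12) and Slc7a11 (0.14 and −0.24) also change side.

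The genes of glutathione synthesis differed little between groups. Gclc medians were 86.8 TPM in monomer and 85.8 TPM in PFF mice at 21% O2, and 87.6 and 88.9 TPM at 11% O2. Its 5 fitted differences lay between −0.04 and 0.05 on the log2 scale. Gclm medians were 58.3 and 57.6 TPM at 21% O2 and 57.4 and 60.6 TPM at 11% O2 in monomer and PFF mice. Its largest differences were 0.10 with PFF at 11% O2 (SE 0.0470, edgeR, adjusted p = 1.00) and 0.15 for the interaction (SE 0.0634, adjusted p = 0.234). The spread of Gclm was narrow in PFF mice at 21% O2 (57.7 ± 1.44 TPM, SD, n = 12) and wider in monomer mice at 21% O2 (60.2 ± 5.60 TPM, SD, n = 11). In monomer mice at 11% O2, replicate 3 was lowest for Gclm (47.5 TPM, next 54.8) as it was highest for Keap1.

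Slc7a11, which imports the cystine from which glutathione is made, ran from 14.7 to 37.0 TPM (median 20.6) in monomer and from 12.8 to 30.0 TPM (median 17.5) in PFF mice at 21% O2. At 11% O2 it ran from 12.8 to 32.5 TPM (median 19.7) in monomer and from 14.6 to 21.4 TPM (median 18.5) in PFF mice. Among the mice analysed, no PFF mouse at 11% O2 reached the high values of the other groups, but replicate 5 of that group, left out by the authors, had 76.7 TPM before correction, the highest Slc7a11 value of the 48 mice. Between 11% and 21% O2 in PFF mice, the fitted Slc7a11 difference was −0.06 (SE 0.147), and 0.28 (SE 0.194) when the 48 mice were fitted before correction with a batch term. The difference with PFF was −0.18 at 21% O2 (SE 0.142, 95% interval −0.47 to 0.11, edgeR, adjusted p = 0.475) and −0.15 at 11% O2 (SE 0.157, −0.47 to 0.16, adjusted p = 1.00). Its 2 highest mice, replicate 8 of the monomer mice at 21% O2 (37.0 TPM) and replicate 11 of those at 11% O2 (32.5 TPM), also had the highest leptomeningeal marker sums of their groups (102 and 152 TPM, group medians 39.5 and 63.7). Replicate 11 was the mouse killed at 98 days.

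Nqo1 and Gsta4, which act on quinones and on aldehydes, had their highest medians in PFF mice at 21% O2. Nqo1 medians were 30.2 TPM in monomer and 33.4 TPM in PFF mice at 21% O2, and 30.8 and 28.2 TPM at 11% O2, with ranges that overlapped (23.7 to 38.9 TPM over all mice). Its difference between 11% and 21% O2 in PFF mice was −0.19 (SE 0.0753, 95% interval −0.35 to −0.04, edgeR, adjusted p = 0.314). Within batches it was −0.48, 0.08 and −0.20 (SE 0.135, 0.112 and 0.124), again not of one sign. Gsta4 ran from 225 to 269 TPM (median 256) in monomer and from 253 to 290 TPM (median 266) in PFF mice at 21% O2. The difference was 0.11 (SE 0.0395, edgeR, adjusted p = 0.0842), with 0.16 in batch 1 and 0.04 in batch 2 (SE 0.0602 and 0.0484). At 11% O2 the Gsta4 difference was 0.06 (SE 0.0436, adjusted p = 1.00). Srxn1 medians lay between 164.3 and 171.1 TPM, and its 5 fitted differences between −0.04 and 0.07.

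The genes did not vary as 1 unit between mice. With group means removed, the 45 pairwise correlations of log2 CPM over 42 mice had a median of 0.09 and were positive for 24 pairs. Nfe2l2 and Keap1 went in opposite directions (Pearson's r = −0.78, Spearman's rho = −0.78, permutation within groups, adjusted p = 1.5e-04, −0.75 without the 2 mice farthest from the median). This adjusted p is the lowest that 100000 permutations gave over the 155 relations computed. Within batches r was −0.83, −0.57 and −0.72. Nfe2l2 and Nqo1 went together (r = 0.73, rho = 0.74, permutation, adjusted p = 1.5e-04, 0.70 without 2 mice), with 0.82, 0.89 and 0.79 within batches. Gclc and Srxn1 also went together (r = 0.62, rho = 0.57, permutation, adjusted p = 0.00119, 0.59 without 2 mice), with 0.62, 0.52 and 0.58 within batches. Gsr had no correlation with another of the 10 genes beyond the −0.39 with Nfe2l2.

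Nfe2l2, Nqo1, Keap1 and Slc7a11 also followed summed markers of cell types, and these relations share library composition. Nfe2l2 correlated with the microglia markers (r = 0.81, rho = 0.78, permutation, adjusted p = 1.5e-04, 0.77 without 2 mice, and 0.88, 0.89 and 0.85 within batches) and with the astrocyte markers (r = 0.75, rho = 0.72, permutation, adjusted p = 1.5e-04, 0.69 without 2 mice). It went against the dopaminergic markers (r = −0.67, rho = −0.68, permutation, adjusted p = 1.5e-04, −0.69 without 2 mice, and −0.82, −0.79 and −0.76 within batches). Nqo1 followed the same lists, at 0.76, 0.73 and −0.55. Keap1 went against the endothelial markers (r = −0.66, rho = −0.65, permutation, adjusted p = 2.8e-04, −0.62 without 2 mice). Within batches this r was −0.67, −0.30 and −0.73, so it was weaker in batch 2. Slc7a11 followed the leptomeningeal markers most closely (r = 0.82, rho = 0.73, permutation, adjusted p = 1.5e-04, 0.79 without 2 mice, and 0.91, 0.88 and 0.89 within batches) and then the pericyte markers (r = 0.78). On batch-corrected values, Gclm, Srxn1, Txnrd1, Gsr and Gsta4 had no r beyond 0.42 with any of the 11 lists. Gclc had none beyond the 0.47 with ependymal markers. Before correction, with group and batch means removed, Gclc reached 0.64 with astrocyte and 0.68 with ependymal markers, and Gclm 0.62 with microglia markers. Within batches, microglia markers gave 0.84, 0.25 and 0.57 for Gclc and 0.90, 0.41 and 0.32 for Gclm. The split between these genes and those that followed markers was thus not sharp.

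The genes most like each of the 10 over the 42 mice were found by the same measure and with no test. Those nearest to Nfe2l2 were Sat1, Kctd12 and Cd38 (r = 0.91, 0.90 and 0.90), and those nearest to Nqo1 were Laptm4a, Rgs10 and Pttg1ip (0.82, 0.80 and 0.80). Nearest to Slc7a11 were Ptgds, Lama1 and Cp (0.83, 0.82 and 0.82). Keap1 was nearest to Ubald1, Atp9a and Sema6b (0.92, 0.91 and 0.88). Cs, citrate synthase, was the nearest gene of both Gclc (0.78) and Srxn1 (0.84). Gclm was nearest to Tapt1 (0.82), Gsta4 to Pomp (0.83) and Txnrd1 to Tmem63b (0.78), and Gsr had only weaker neighbours, Fam120a first (0.62).

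**Figure D4:**
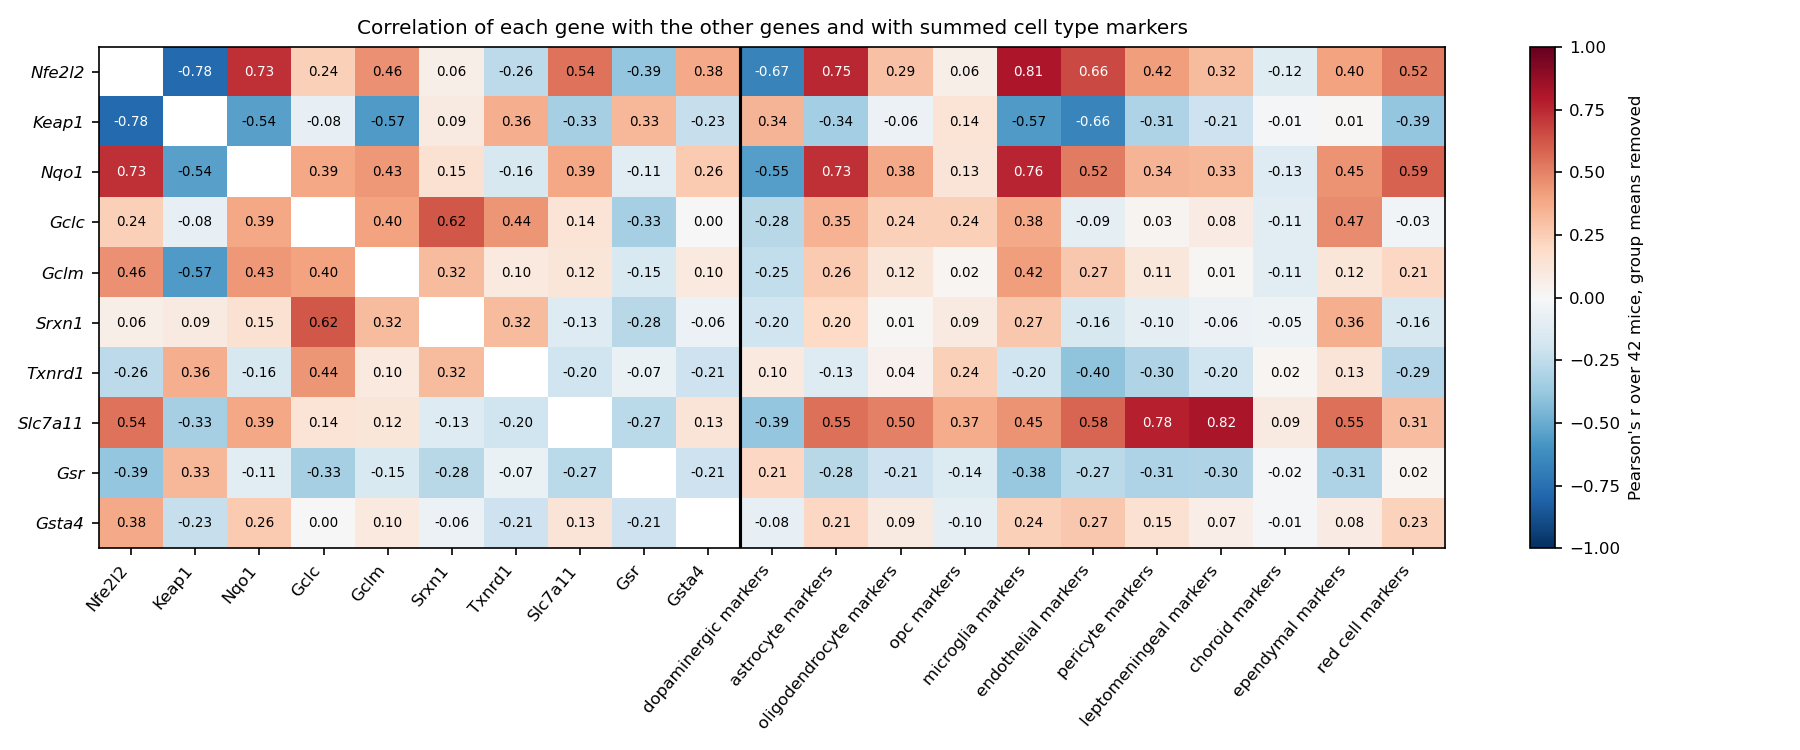
Pearson's r over 42 mice, group means removed, of each gene (rows) with the other 9 genes and with the summed TPM of 11 cell type marker lists (columns), red positive and blue negative. Nfe2l2 and Nqo1 share red cells for microglia and astrocyte markers (0.73 to 0.81), and Slc7a11 is reddest for leptomeningeal markers (0.82).

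The marker sums bear on the group comparisons as well. In monomer mice, 11% O2 called 7 of 7 endothelial, 5 of 5 pericyte and 5 of 5 red cell markers higher (medians 0.521, 0.575 and 1.32 on the log2 scale), where 4.68% of all genes were called higher, and 0 of 7 leptomeningeal, 0 of 8 microglia and 0 of 8 astrocyte markers. Of the oligodendrocyte markers, 2 of 8 were called higher in these mice (list median 0.162). The endothelial sum of monomer mice had a median of 249 TPM at 21% and 344 TPM at 11% O2. With 11% O2 in PFF mice, 2 of 7 endothelial and 2 of 5 pericyte markers were called higher. There, 0.580% of all genes were called. The part of the vascular and blood markers in the values of Txnrd1 and Gsr was not tested. With the astrocyte and leptomeningeal sums as covariates, a fit chosen after seeing the data, Txnrd1 was −0.15 (edgeR, adjusted p = 0.0228) and Gsr −0.13 (adjusted p = 0.0943) at 11% O2 in monomer mice. In the same fit Slc7a11 was −0.24 with PFF at 21% O2 (SE 0.0743, adjusted p = 0.0345) and −0.24 with 11% O2 in monomer mice (SE 0.0810, adjusted p = 0.0410), and Nfe2l2 −0.19 (SE 0.0566, adjusted p = 0.0292) and −0.20 (SE 0.0618, adjusted p = 0.0232). None of these reached the fold threshold.

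Around the 10 genes, the calls in the lists of regulators and targets are to be read against the shares of all genes called, 3.70% with PFF at 21% O2, 7.23% with 11% O2 in monomer and 0.580% in PFF mice, and 1 call in a list of this size is no result about the list. Of 13 regulators and partners of NRF2, Mafg, the small MAF that pairs with it, was the only one called in any of the 5 comparisons. It fell at 11% O2 in monomer mice, from a median of 101 TPM (80.1 to 114) to 79.8 TPM (75.6 to 97.6), with a log2 fold change of −0.26 that lay close to the fold threshold (SE 0.0581, edgeR, adjusted p = 0.00185), and in batch 1 alone it was −0.16 (adjusted p = 0.199). Of 22 other NRF2 targets, 2 were called. Aox1, an aldehyde oxidase, rose with PFF at 21% O2, from a median of 6.35 to 8.34 TPM (log2 fold change 0.38, SE 0.109, edgeR, adjusted p = 0.0263), and with 11% O2 in monomer mice, to 8.60 TPM (0.36, SE 0.117, adjusted p = 0.0315). The call of Aox1 at 11% O2 was lost on counts before correction with batch as a covariate (0.379, edgeR, adjusted p = 0.0727). Ephx1, the microsomal epoxide hydrolase, fell with 11% O2 in PFF mice, from 59.4 TPM (49.2 to 75.2) to 42.1 TPM (37.8 to 51.7), with −0.48 (SE 0.0821, edgeR, adjusted p = 0.000425). With all 48 mice before correction and batch as a covariate, Ephx1 was −0.272 (SE 0.135, edgeR, adjusted p = 0.368) and was not called. Aox1 with PFF at 21% O2 also lost its call in that fit (0.354, edgeR, adjusted p = 0.112). The other 20, among them Hmox1, Txn1 and Prdx1, were not called in any comparison.

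Of 16 genes that supply glutathione or break it down, 3 were called at 11% O2 in monomer mice, where 7.23% of all genes were, and 1 of the 3 also with PFF at 21% O2. Mat2a, which makes S-adenosylmethionine upstream of cysteine synthesis, fell with 11% O2 in monomer mice, from a median of 290 to 243 TPM (−0.33, SE 0.0616, edgeR, adjusted p = 0.000271). Cbs, which commits homocysteine to cysteine synthesis, rose there from 38.7 to 44.6 TPM (0.26, SE 0.0901, edgeR, adjusted p = 0.0454). Ggt1, which breaks down extracellular glutathione, rose in the same comparison (0.27, SE 0.0871, adjusted p = 0.0340) and with PFF at 21% O2 (0.25, SE 0.0815, adjusted p = 0.0491), both close to the fold threshold. With batch as a covariate on counts before correction, Mat2a was still called at 11% O2, whereas Cbs (0.273, edgeR, adjusted p = 0.120) and Ggt1 (0.289, adjusted p = 0.0840) were not. With PFF at 21% O2, Ggt1 was called in 6 of the 42 fits that left out 1 mouse. None of the 13 genes of ATF4, a pathway that also controls Slc7a11, was called in any comparison.

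The glutathione transferases other than Gsta4 leaned to one side in 2 comparisons and in the interaction. Of 22 listed, 18 were tested (Gsta1, Gsta2, Gstm3 and Mgst2 were too low), and 3 of the 18 (Gstm1, Gstp1 and Mgst1) also stood in the target list. With PFF at 21% O2, 17 of 18 had positive log2 fold changes (median 0.127), where 50.4% of all genes tested did, and only Gsta3 was called. It rose from a median of 2.31 to 3.21 TPM with ranges that overlapped, a log2 fold change of 0.49 (SE 0.109, edgeR, adjusted p = 0.00358). With 11% O2 in PFF mice, 17 of 18 had negative log2 fold changes (median −0.147), where 46.8% of all genes were positive, and only Gstm6 was called. It fell from 27.7 TPM (23.0 to 31.0) to 19.9 TPM (17.0 to 22.8), with −0.45 (SE 0.0758, edgeR, adjusted p = 0.000416), and also with 11% O2 in monomer mice (−0.29, SE 0.0793, adjusted p = 0.0122). For the interaction, 17 of 18 had negative log2 fold changes (median −0.170), where 49.7% of all genes were positive, and none was called. The 2 comparisons and the interaction share the PFF mice at 21% O2. Within batches, 14 and 16 of 18 were positive with PFF at 21% O2 (batches 1 and 2), and 17, 12 and 17 of 18 were negative with 11% O2 in PFF mice (batches 1, 2 and 3). The target and supply lists leaned the same way, by smaller medians. With PFF at 21% O2, 18 of 22 targets and 13 of 16 supply genes were positive, but only 3 of 13 regulators. With 11% O2 in PFF mice, 15 of 22 targets and 11 of 16 supply genes were negative. For the interaction, 16 of 22 and 13 of 16 were negative. The Gstm genes are close copies of each other, and reads that fit several of them were counted once at a primary position, so their single values are uncertain.

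**Figure D5:**
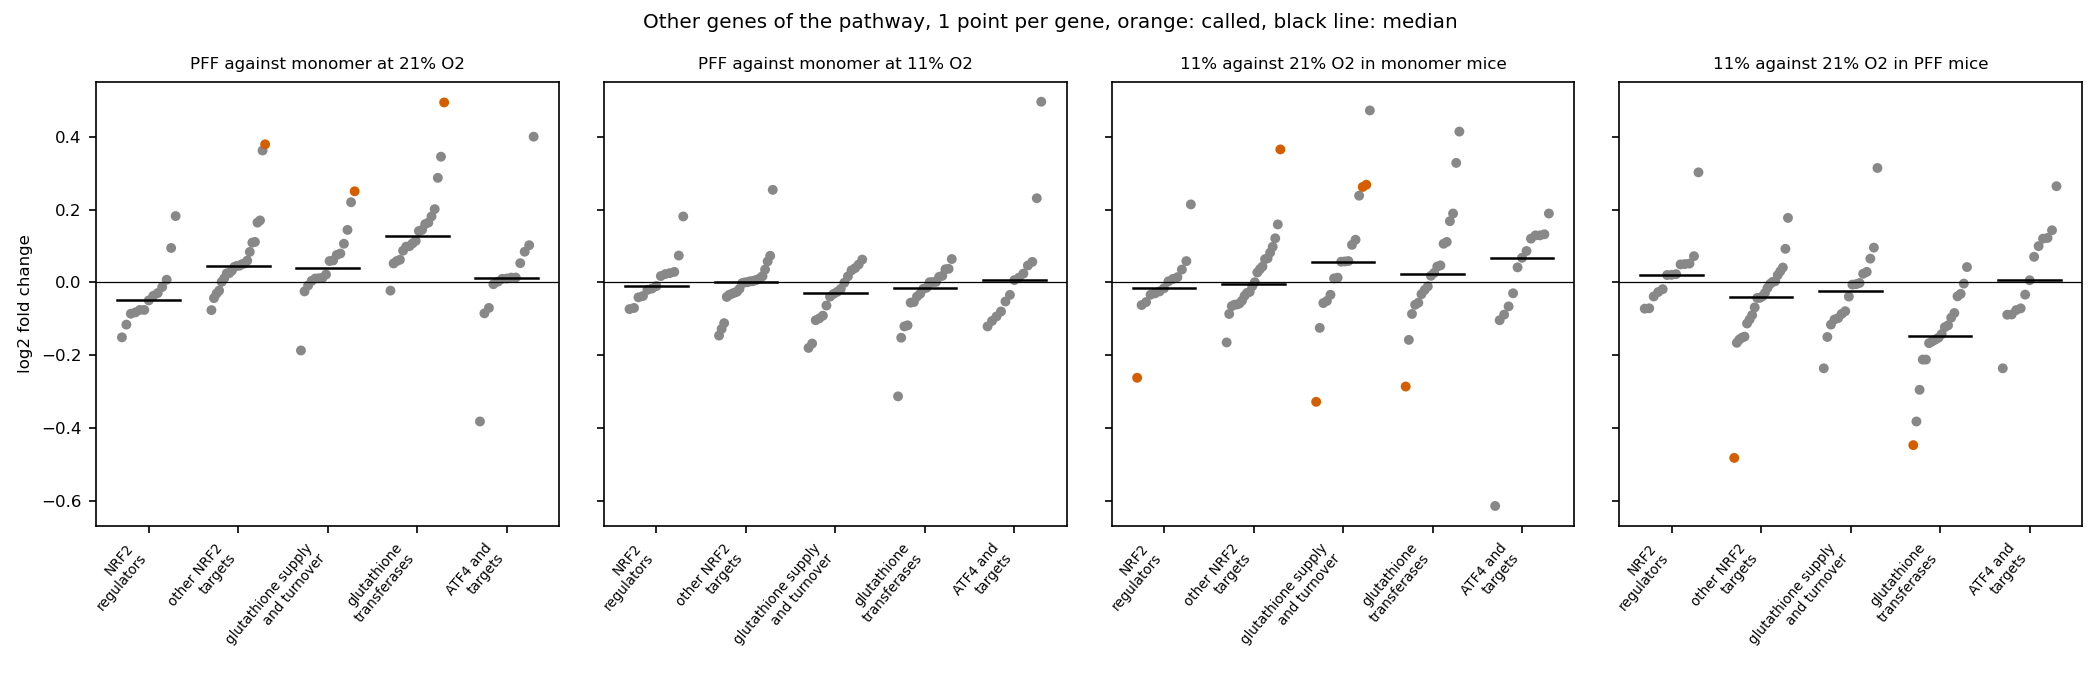
Log2 fold change (y axis) of the genes tested in 5 further lists (x axis) in 4 comparisons, 1 point per gene, called genes in orange, list medians as black lines. Most points of the glutathione transferases lie above 0 with PFF at 21% O2 (median 0.127) and below 0 with 11% O2 in PFF mice (median −0.147).

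Annotation limits apply to some values. The library kit and the counting kept no strand, and Keap1 (chr9:21229730-21239361, minus strand) overlaps the antisense gene Gm16754, while Gclm (chr3:122245557-122270732, plus strand) overlaps Gm17494 on the other strand. Txnrd1 overlaps Gm38560 and Gm47073 on the other strand, and Slc7a11 the antisense gene Gm37854. The strand that a read there came from cannot be told. Whether reads that fit both genes were counted or left out was not examined. Txnrd1 (chr10:82833951-82897712, plus strand) spans Eid3 on the same strand.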

How the data were processed

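Poly(A) RNA-seq libraries of 48 mice were processed by the authors, who aligned reads with STAR (2.7.5a) to mm10 with GENCODE vM24, removed duplicates with Picard (2.21.9) and assigned reads to genes with featureCounts (2.0.1). The deposited counts are raw reads per gene, and the deposited TPM are the authors' length-scaled values. The authors then removed 6 outlier mice and adjusted the counts of 42 for harvest batch with ComBat-seq, giving O2 level and injection as covariates, and made batch-corrected counts and TPM. Adjustment uses the groups, so p-values computed after it may be too small and intervals too narrow, and batch and group are partly confounded.

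Here, batch-corrected counts were fitted with edgeR 4.0.16 (R 4.3.3) by the quasi-likelihood method, with TMM scaling, a filter on low counts (14839 genes kept), 1 coefficient per group and no batch term. Contrasts were adjusted by Benjamini–Hochberg over all genes, and a call needed an adjusted p below 0.05 and an absolute log2 fold change above 0.25. All p-values are two-sided. Each mouse is 1 replicate. Intervals of 95% used the residual degrees of freedom. TPM served for levels. Correlations used log2 CPM with group means removed, and 100000 permutations of mice within groups. Alternatives were DESeq2 1.42.0, limma 3.58.1 on log2(TPM + 1) and log2(TPM + 0.1), other scaling and filters, counts before correction, single batches, a replicate block and leaving out each mouse. No 2 libraries of the same group were duplicates, and libraries of different groups were not compared in this way. The fit was tested on simulated data.

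The 10 genes and all lists were chosen with earlier results of these data known. All 10 are named in each comparison, from the other lists the called genes with the smallest p (up to 4 per comparison), and for each gene the 3 with the highest correlation. Gene positions are from GENCODE vM21 on GRCm38, with the same gene identifiers as the files. The sources used here disagree on when 11% O2 began, and the paper's design with these groups starts it soon after the injection.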

Additional observations from a re-analysis of the deposited data

Results flagged for a closer look

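In 4 of the 20 sets of 9 or 10 mice examined (10 genes in the 2 groups at 11% O2), 1 mouse lay far from the rest of its group by Dixon's test, which chance gives in about 1 in 20 independent sets. The 10 sets of a group hold the same mice and are not independent, so the 2 shares cannot be compared directly. Among monomer mice at 11% O2, replicate 3 was highest for Keap1 (75.3 TPM, next 59.8) and lowest for Gclm (47.5 TPM, next 54.8), and replicate 11 was highest for Slc7a11 (32.5 TPM, next 22.1). Among PFF mice at 11% O2, replicate 8 was highest for Nfe2l2 (41.6 TPM, next 34.7) and also had the highest microglia and astrocyte marker sums of its group (1931 and 3299 TPM). Without replicates 3 and 11 of the monomer mice, chosen after seeing the data, 0 of 10 genes were called in each of the 5 comparisons. The causes of these values were not tested.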

How the results depend on the processing

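The count of 0 of 10 genes called held in each comparison under all alternatives but 3. In batch 2 alone, 1 gene (Nfe2l2) was called with PFF at 21% O2, where batch 1 alone called 0 (of all genes, 580 and 9). With adjusted p as the only criterion, 2 genes (Txnrd1 and Gsr) were called at 11% O2 in monomer mice. Leaving out 1 mouse at a time gave counts of 0 in 4 comparisons and from 0 to 1 for the interaction (Gsr, without PFF replicate 3 at 11% O2). DESeq2 called 0 of 10 in each comparison. The lower Txnrd1 at 11% O2 in monomer mice lay between −0.191 and −0.152 (adjusted p from 0.00116 to 0.0270) over the alternatives other than single batches, and was −0.13 in batch 1 alone (adjusted p = 0.180). Gsr there lay between −0.159 and −0.0832 (adjusted p from 0.0451 to 0.310). Over 780 values from 17 alternatives, 45 had the opposite sign to the reported one, none of them for a called value, as had 62 of 2100 values with 1 mouse left out. The replicate numbers were not taken to pair mice, because same-numbered mice of 2 groups correlated between −0.40 and 0.56. Between monomer mice at 21% and PFF mice at 11% O2 these values ran from 0.03 to 0.46 (median 0.17, other numbers −0.02). In the other pairs of groups the medians ran from −0.20 to 0.09. The paper describes a matched-pairs design, whose pairs were not known here. With the replicate block 0 of 10 genes were called in each comparison, and 461 genes in all with PFF at 21% O2, against 549. The interaction could not be fitted with only the groups compared, and batches that lacked a group gave no value. Counts of all genes called moved by over 1.5 times with adjusted p alone (1127 for 549 with PFF at 21% O2, 1961 for 1073 at 11% O2 in monomer mice), in batch 1 and, at 11% O2 in PFF mice, each batch (9, 297, from 2 to 7, and 11, for 549, 1073, 86 and 318), with counts before correction and batch as a covariate (657 at 11% O2 in monomer mice, and 1.39% with 42 and 1.03% with 48 mice for 2.14% in the interaction), without a batch term (57 at 11% O2 in PFF mice) and with marker covariates (1.13% for 0.580% there). With batch as a covariate in 42 mice, calls at 11% O2 in monomer mice went from 3 to 1 for glutathione supply and from 1 to 0 for other targets, and with PFF at 21% O2 from 1 to 3 for the transferases. The calls of Mat2a, Gsta3, Ephx1 and Gstm6 (in PFF mice) held with each mouse left out in turn, whereas those at 11% O2 in monomer mice held in 36 of 42 such fits for Aox1 and Ggt1, 31 for Cbs, 37 for Mafg and 40 for Gstm6, and those with PFF at 21% O2 in 40 for Aox1 and 6 for Ggt1. Single batches called none of Aox1, Ggt1, Cbs, Gsta3, Gstm6, Ephx1 and Mafg. With 48 mice before correction and batch as a covariate, Ephx1 was not called, nor was Aox1 with PFF at 21% O2.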
